A study of Mus musculus with 18 samples.

Results

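Apigenin was compared with its vehicle in the whole brain of young adult mice. The comparison uses the 7 young libraries whose values sit beside their own gene names: apigenin 1, 2 and 4 against vehicle 1, 2, 3 and 4, out of 18 libraries in the series. The mice were males aged 6 months, given as C57BL/6N in the strain field and as C57BL/6 in the treatment protocol. The treated animals drank water with 0.5 mg/mL apigenin in 0.2% carboxymethylcellulose, and the controls drank 0.2% carboxymethylcellulose alone. Old mice of 27 months received the same 2 drinks, with 5 libraries in each group. They enter the fit for its estimate of the spread and stand beside the young values where named. Young apigenin 3 was left out of the main test, because its values slip by up to 4 rows against the gene names from Mrpl16 onward. Its values before that row, or moved back into place, are given as a description and enter only alternative fits that say so. The labels number the libraries of a group but do not say how long the mice drank the solutions, at what hour the brains were taken, or whether litters or cages were shared. The p-values therefore measure the spread between these libraries.

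Apigenin is a flavone of parsley, celery and chamomile. In cell and animal work it is known as an inhibitor of CD38, a NAD-consuming ectoenzyme, as a weak ligand at the benzodiazepine site of the GABA-A receptor, as a ligand of the aryl hydrocarbon receptor, as an inhibitor of casein kinase 2, and as a compound that acts on the NRF2 and NF-kB pathways. The gene group that the results turn on is the immediate early genes. Neurons switch these genes on within minutes of synaptic activity or handling, through the transcription factors CREB and SRF already bound near their start sites, and most of their products are themselves transcription factors. In brain tissue their messenger RNA is commonly read as a trace of recent activity.

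No gene passed the test. Of 15808 genes measured, 0 (0%) had an adjusted p under 0.05 in limma with Benjamini-Hochberg adjustment, and the smallest adjusted p was 0.999. An unadjusted p under 0.05 was reached by 490 genes (3.1%), 406 of them higher with apigenin (2.57%) and 84 lower (0.531%). Every apigenin library lay above every vehicle library for 946 genes (5.98%) and below every one for 210 (1.33%). edgeR also passed 0 genes, with 377 at an unadjusted p under 0.05, and DESeq2 passed 1, Ctgf, with 384. The share of higher genes moved with the scaling: they made up 82.9% of the 490 with the deposited scaling, 57.0% with edgeR's TMM factors, 50.8% with DESeq2 and 47.3% after quantile normalization. The median difference over all genes was 0.0369 on the log2 scale, and 0.000683, -0.00422 and -0.00195 in those 3 alternatives. Leaving out young vehicle 2 lowered the count at an unadjusted p under 0.05 from 490 to 253. That library holds 244180 of the ribosomal precursor Rn45s, against 62250 to 98330 in the other 6.

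The error is given here for single genes, before adjustment over all genes. Passing the adjusted test takes a larger difference than the half-widths below. The half-width of the 95% confidence interval of a gene's difference was 0.25 on the log2 scale at the median, a fold of 1.19. It was 0.69 for the 3185 genes with a mean under 100, 0.28 for the 6030 between 100 and 1000, and 0.18 for the 6593 at 1000 or more. The young libraries hold between 29283045 and 41145635 reads assigned to genes. Pearson correlations of their log2 values over genes lay between 0.9855 and 0.9917 for the 9 pairs within a group and between 0.9869 and 0.9932 for the 12 pairs across groups. On the second principal component of the 7 libraries, with 19.0% of the variance, the apigenin libraries stood at -14.4, -4.03 and -19.6 and the vehicle libraries at 6.52, 26.8, -1.57 and 6.24, without overlap. The first, with 25.5%, set vehicle 1 apart at 33.7 and the groups overlapped on it.

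**Figure D1:**
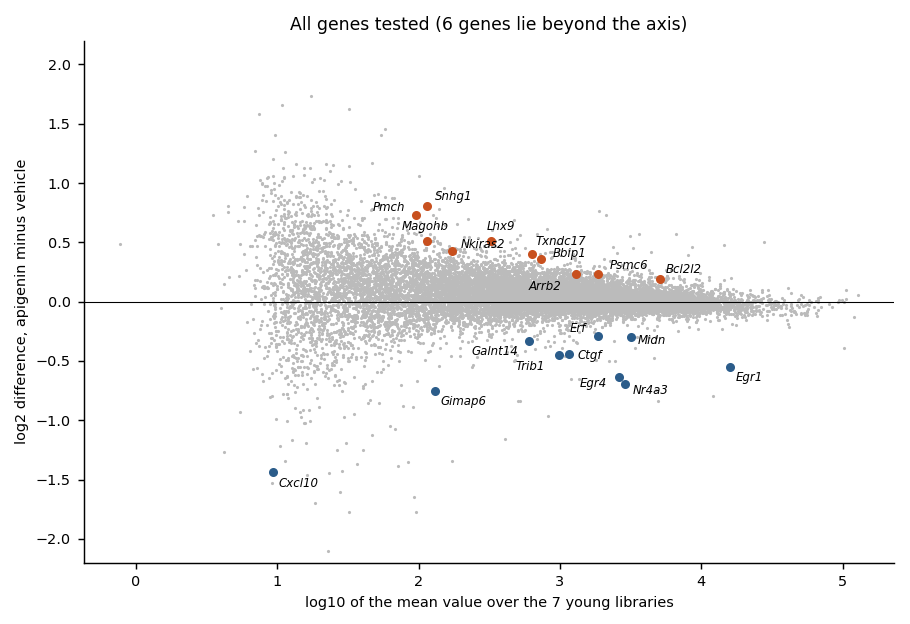
All genes tested with a value above 0 in a young library: log2 difference, apigenin minus vehicle, against the log10 of the mean value over the 7 young libraries. Colored points are the 10 higher and 10 lower named genes with the smallest unadjusted p, none of which passed at adjusted p under 0.05, and 6 genes lie beyond the axis.

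Apart from the Hox and pituitary genes, whose levels in single libraries are given below, the immediate early genes had the lowest median of the 56 gene lists examined. Of 21 members measured, 20 had a lower mean log2 level with apigenin, as 36.2% of all genes did (63.8% were higher), and 11 had an unadjusted p under 0.05, all on the lower side, where 0.531% of all genes stand. In 8 of the 21 every apigenin library lay below every vehicle library, where 1.33% of all genes do so. None of the 21 passed the adjusted test. The median difference of the list was -0.50 on the log2 scale against 0.0369 over all genes, and it was -0.50, -0.51 and -0.52 with edgeR, DESeq2 and quantile normalization. The list's mean log2 level was 10.95, 10.49 and 11.12 in apigenin 1, 2 and 4, and 11.59, 11.18, 11.20 and 11.38 in vehicle 1 to 4. The levels of the groups did not overlap, but apigenin 4 lay only just under vehicle 2. In whole brain, fewer active cells and less RNA in each cell cannot be told apart.

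**Figure D2:**
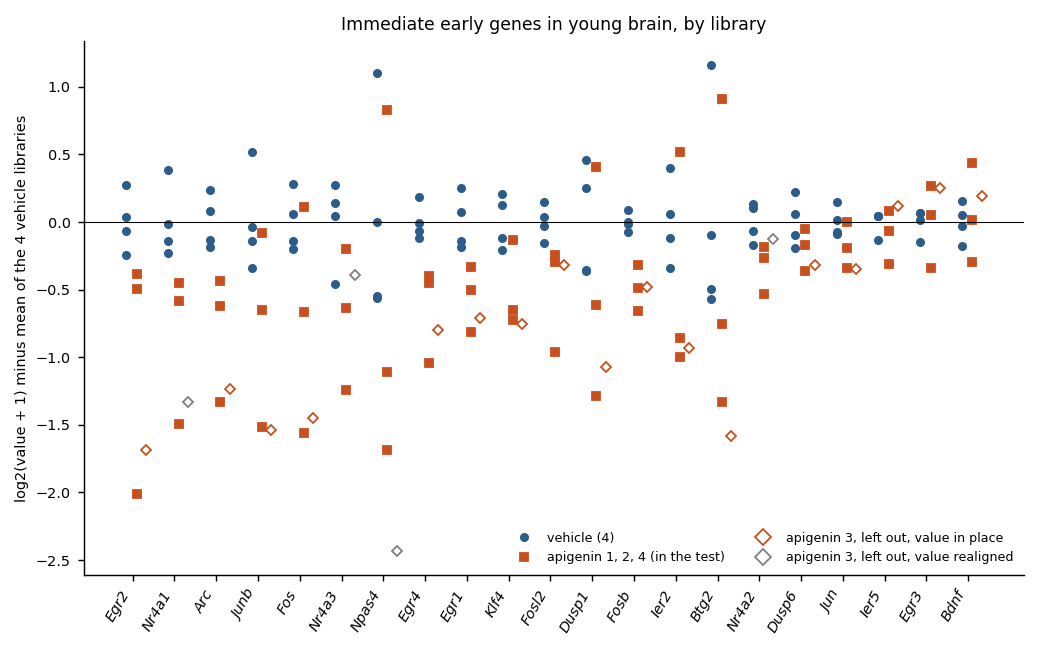
Each immediate early gene in young brain as log2(value + 1) minus the mean of the 4 vehicle libraries; circles are vehicle, filled squares apigenin 1, 2 and 4, and open diamonds the left-out apigenin 3. 20 of the 21 genes have a mean below 0 in the 3 apigenin libraries, and none passed the adjusted test.

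Because CREB reads the same short element at many of these genes, the bases just before their start sites are shown for 4 members. The element searched was the conserved core of the cAMP response element, TGACG on either strand, so that its reverse complement CGTCA also counts and a full palindrome counts as 2 overlapping matches. Promoters come from RefSeq on GRCm38.p6, and the window is the 250 bases before the start. At least 1 match stood in 13 of the 17 immediate early genes found in that table, against 19.8% of its 27025 genes, or 17.8% of its 32851 promoters. Egr1, Egr3, Arc and Ier2 were not found in it. Fosl2, which had an unadjusted p under 0.05 (limma), held 0, as did Jun, Ier5 and Dusp6. Npas4 and Btg2 held 2 and Dusp1 held 3, without such a p. Nr4a1, Nr4a2 and Nr4a3 each hold 4, a number that 0.137% of all promoters reach. Matches are in capitals, each line reads 5′ to 3′ on the gene's own strand, and the Nr4a3 line stops before the first annotated exon and so shows 3 of its 4. The runs are chr15:101266603-101266820 (plus strand) for Nr4a1, chr4:48045064-48045152 (plus) for Nr4a3, chr6:85513684-85513776 (minus) for Egr4 and chr10:67537748-67537828 (plus) for Egr2.
Nr4a1: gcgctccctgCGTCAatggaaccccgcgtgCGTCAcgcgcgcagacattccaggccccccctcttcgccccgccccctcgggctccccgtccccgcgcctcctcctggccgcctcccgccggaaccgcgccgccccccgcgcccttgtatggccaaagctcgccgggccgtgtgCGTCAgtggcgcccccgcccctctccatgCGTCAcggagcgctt
Nr4a3: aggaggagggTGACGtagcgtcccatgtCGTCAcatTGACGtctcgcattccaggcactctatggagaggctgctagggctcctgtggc
Egr4: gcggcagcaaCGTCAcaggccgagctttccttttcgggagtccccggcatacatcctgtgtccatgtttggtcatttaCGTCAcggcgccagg
Egr2: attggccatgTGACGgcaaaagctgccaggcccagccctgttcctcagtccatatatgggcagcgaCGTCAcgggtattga

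A match is a run of letters and no measurement of binding.

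Among the zinc finger factors of the Egr family, Egr1, which activates synaptic genes in stimulated neurons, stood at 12974, 10465 and 14632 in apigenin 1, 2 and 4 and at 21966, 16693, 16181 and 19381 in vehicle 1 to 4 (deposited normalized values). All apigenin values lay below all vehicle values. The mean was 12690 ± 2098 (SD of 3) against 18555 ± 2672 (SD of 4), a log2 difference of -0.55 ± 0.16 (SE; limma, unadjusted p = 0.0035). Egr2 read 767, 248 and 713 against 1212, 846, 959 and 1031, again without overlap, and differed by -0.96 on the log2 scale (SE 0.34, unadjusted p = 0.011). Egr4 read 2327, 1490 and 2253 against 3499, 2940, 2833 and 3063 (log2 difference -0.63, unadjusted p = 0.0057). Egr3 stood apart from its relatives: 6346, 7356 and 4833 against 6411, 5521, 6421 and 6201, so that the groups overlapped fully and the difference was -0.0093.

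Arc encodes a cytoskeletal protein of recently active synapses that drives AMPA receptor endocytosis. It measured 9486, 5802 and 10759 with apigenin and 17146, 13280, 12822 and 15411 with vehicle. No apigenin library reached a vehicle library, and the log2 difference was -0.79 (95% interval -1.40 to -0.18, unadjusted p = 0.014). The orphan nuclear receptor Nr4a1 read 3958, 2107 and 4339 against 7742, 5369, 5045 and 5877, a difference of -0.84 on the log2 scale (unadjusted p = 0.019). Its relative Nr4a2 read 2183, 2306 and 1809 against 2328, 2504, 2880 and 2818, the narrowest gap among the genes without overlap (-0.33, unadjusted p = 0.043). Nr4a3 overlapped through vehicle 1, with 2945, 2176 and 1428 against 2459, 3490, 4076 and 3723 (-0.69, unadjusted p = 0.0057).

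The AP-1 genes, whose products pair as Fos and Jun dimers, were less even. Fosb, which has a long-lived splice form in stimulated neurons, read 1636, 1452 and 1290 against 2166, 2040, 1938 and 2015, without overlap (-0.49, unadjusted p = 0.028). Fosl2 read 2362, 2283 and 1439 against 2508, 2749, 3106 and 2866, also without overlap (-0.50, unadjusted p = 0.018). Fos itself overlapped, with 2169, 1166 and 3712 against 4182, 2999, 3120 and 3582 (-0.71, unadjusted p = 0.092), because apigenin 4 stood as high as the controls. Junb overlapped in the same way, with 3520, 1936 and 5226 against 7923, 5004, 4375 and 5382 (-0.75, unadjusted p = 0.035).

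The members split by how apigenin 4 behaved. In Npas4, a neuronal factor induced by calcium entry, apigenin 4 read 2103 beside 549 and 366 in apigenin 1 and 2, and vehicle 1 read 2547 beside 811, 799 and 1186. Btg2, an antiproliferative gene, gave 1846 in apigenin 4 beside 582 and 390, and 2202 in vehicle 1 beside 698, 662 and 920. Dusp1, a phosphatase that shuts off MAP kinases, and Ier2, a nuclear protein of the early response, showed the same high pair. By contrast apigenin 4 was the lowest of all 7 libraries in Nr4a2, Nr4a3, Fosb and Fosl2. Among the 11 members with an unadjusted p under 0.05, Klf4, a zinc finger factor, completes the list with 490, 325 and 342 against 621, 494, 465 and 586, so that only apigenin 1 entered the vehicle range (-0.50, unadjusted p = 0.010). Bdnf, the neurotrophin induced by activity, was the member with a mean above that of vehicle, with 1265, 942 and 759 against 912, 824, 1037 and 968 (0.053), and Jun, Dusp6 and Ier5 differed by -0.18, -0.19 and -0.10 with overlap.

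Which library was left out mattered for the count of these genes. 4 members had an unadjusted p under 0.05 without apigenin 2, 9 without apigenin 1 and 12 without apigenin 4. Without vehicle 1 there were 8. The list median, -0.50 with all 7 libraries, was -0.37 without apigenin 2, -0.66 without apigenin 4 and -0.43 without vehicle 1. At least 18 of the 21 lay below 0 in each of these fits. Vehicle 1 is also the library with the least cerebellar RNA, given below. With the cerebellar level as a term in the fit, the count was 11 and the median -0.50.

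The left-out library offers a reading that the test did not use, although it is set against the same 4 vehicle libraries. Apigenin 3 lay below all 4 vehicle libraries in 14 of the 17 immediate early genes whose values were in place, and in 16 of 21 once displaced values were moved back. Over all genes tested it lay below all 4 in 19.0% of those in place and 18.4% with the realigned ones. It read 11233 for Egr1, 311 for Egr2, 1767 for Egr4, 6181 for Arc, 1259 for Fos, 1457 for Fosb and 1907 for Junb, each under the lowest vehicle value. Over the 17 members in place its mean log2 level was 10.57, against 10.50 to 11.12 in the other apigenin libraries and 11.16 to 11.57 in the vehicle libraries. In Egr3, Ier5 and Bdnf it lay above every vehicle library. Apigenin 3 stood outside the vehicle range in other lists too, counted in place or realigned. It lay above all 4 vehicles in 16 of 22 unfolded protein response genes, 9 of 19 heat shock and 10 of 17 endothelial genes. Over all genes it did so in 15%. Below all 4 were 0, 0 and 2 members. In the tested libraries the mean levels of those lists overlapped between the groups.

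The old mice supply a second set of animals with controls of their own. There 10 of the 21 genes had an unadjusted p under 0.05 on the lower side, where 1.01% of all genes do, with a list median of -0.27. Arc differed by -0.67 between old apigenin and old vehicle (unadjusted p = 0.012), Nr4a1 by -0.78 (unadjusted p = 0.010) and Egr2 by -0.79 (unadjusted p = 0.012). Egr1 differed by -0.27 in old mice (unadjusted p = 0.065), and Nr4a3 by 0.066. The groups overlapped in the old mice: Arc ran from 3870 to 8255 with a median of 5295 in the old apigenin group and from 4980 to 12312 with a median of 11263 in the old vehicle group. No adjusted p passed there. The test of the difference between ages gave an adjusted p of 0.99996 for every one of these genes, and the smallest unadjusted p in the list was 0.016, for Nr4a3.

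**Figure D3:**
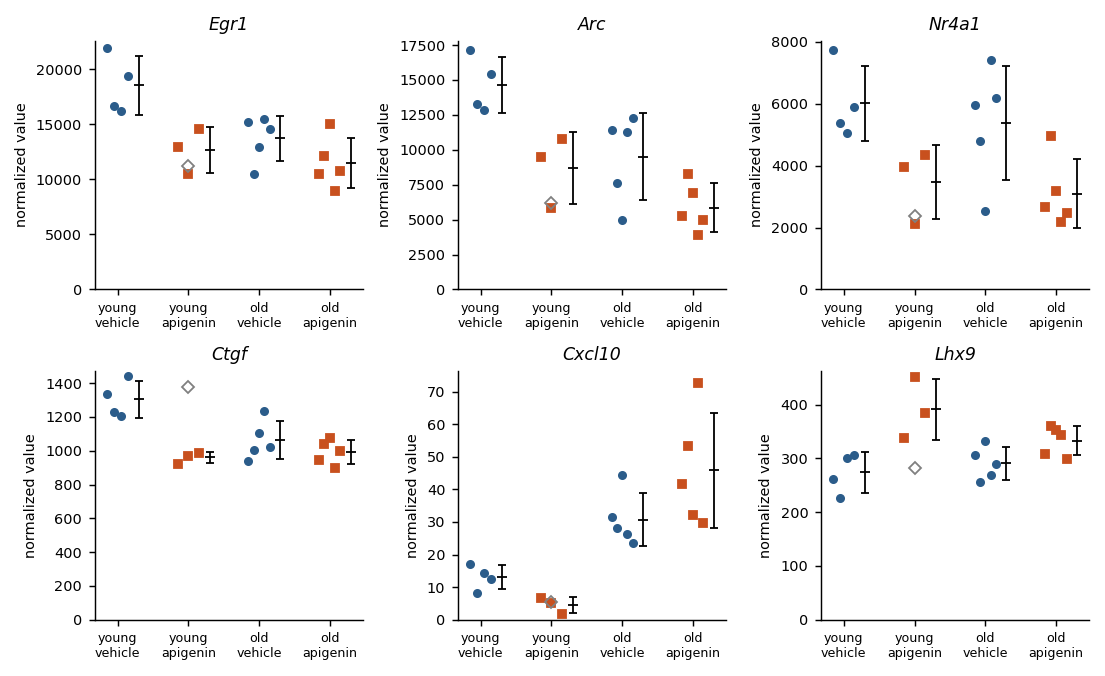
Deposited normalized values of 6 genes in young and old brain, 1 point per library, with the mean and SD beside each group; grey open diamonds are the left-out young apigenin 3, and every axis starts at 0. Egr1, Arc, Nr4a1, Ctgf and Cxcl10 show no overlap between the 3 tested apigenin libraries and the 4 vehicle libraries on the low side, and Lhx9 shows none on the high side.

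The other genes with the smallest unadjusted p on the lower side came from several pathways. Ctgf (now Ccn2, chr10:24595442-24598683 on GRCm38), a matricellular protein of the YAP-TEAD pathway, read 922, 970 and 987 with apigenin against 1335, 1230, 1204 and 1445. The groups did not overlap, and the log2 difference of -0.44 (95% interval -0.63 to -0.24) had the smallest unadjusted p of all genes, 0.000165. It missed the threshold in limma (adjusted p = 0.999) and passed it in DESeq2 (adjusted p = 0.0187). The left-out apigenin 3 read 1375 in its own row, inside the vehicle range. Of the other 22 YAP-TEAD genes measured none had an unadjusted p under 0.05, and the list's median was 0.049. Cyr61 (Ccn1), a second target of the pathway and itself quickly induced, read 308, 158 and 675 against 1117, 401, 367 and 653.

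Cxcl10 (chr5:92346638-92348889), an interferon-induced chemokine, was barely present, at 6.5, 5.1 and 1.7 against 17.1, 8.2, 14.2 and 12.6. The values did not overlap and differed by -1.44 on the log2 scale, but rest on a handful of reads in each library (unadjusted p = 0.0014). Tgfb1, a cytokine of glia and vessels, read 271, 295 and 272 against 346, 339, 330 and 316 (-0.25, unadjusted p = 0.0081). Those were the only members of 16 measured cytokine and chemokine genes with an unadjusted p under 0.05. Over all genes 0.531% had such a p on the lower side. Gimap6 (chr6:48701582-48708225), an immune GTPase, read 128, 83 and 74 against 126, 166, 160 and 178, with overlap through the first library of each group.

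Midn (midnolin), Trib1 (a pseudokinase) and Erf (an ETS repressor controlled by ERK) were each without overlap. Midn read 3141, 2586 and 2694 against 3216, 3624, 3314 and 3605. Trib1 read 957, 663 and 832 against 1184, 1070, 984 and 1203. Erf read 1655, 1622 and 1707 against 2299, 2072, 1844 and 1924, a difference of -0.29 (unadjusted p = 0.0030). Galnt14, an enzyme that starts O-linked glycans, read 471, 592 and 520 against 649, 687, 646 and 665. Of the 10 lower named genes apigenin 3 lay below all 4 vehicle libraries in 8, where 18.4% of all genes did. These genes were picked through the same vehicle values, which raises that count by itself. Apigenin 3 read 123 for Gimap6, 5.3 for Cxcl10, 3022 for Midn, 825 for Trib1, 1589 for Erf and 564 for Galnt14. The 2 exceptions were Ctgf and Nr4a3, at 2579 after realignment.

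The 10 genes with the smallest unadjusted p on the higher side had no overlap between the groups. Lhx9 (chr1:138825186-138848577), a homeodomain factor of thalamus and hypothalamus, read 337, 451 and 385 against 263, 226, 301 and 307 (log2 difference 0.51, unadjusted p = 0.00098). Pmch, the precursor of melanin-concentrating hormone made in the lateral hypothalamus, read 99, 153 and 124 against 73, 65, 91 and 68 (0.73). Snhg1, a non-coding host of small nucleolar RNAs, read 129, 163 and 168 against 99, 72, 91 and 85 (0.81). These were low to middling values. Psmc6, an ATPase subunit of the proteasome, stood higher, at 2125, 2060 and 1950 against 1681, 1634, 1794 and 1870 (0.23). So did Bcl2l2, an anti-apoptotic relative of Bcl2, at 5628, 5492 and 5461 against 4483, 4485, 5347 and 5067 (0.19).

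Arrb2, a beta-arrestin that ends G protein receptor signaling, read 1403, 1373 and 1472 against 1240, 1180, 1269 and 1137 (0.23). Nkiras2, which binds IkB proteins, read 195, 211 and 200 against 142, 166, 130 and 166 (0.42). Txndc17, a thioredoxin-like protein, differed by 0.41, Bbip1, a subunit of the ciliary BBSome, by 0.36 and Magohb, an exon junction complex protein, by 0.51. The left-out library did not share this side: apigenin 3 lay above all 4 vehicle libraries in 0 of the 10 and below all 4 in 1, Pmch at 64.5. It read 281 for Lhx9, 87.8 for Snhg1, 497 for Txndc17 and 607 for Bbip1, all within the vehicle range. Over the 946 genes whose 3 tested apigenin libraries were all higher, it lay above all 4 vehicles in 25.0% of the 937 with a value, against 15% of all genes. Over the 210 that were all lower it lay below all 4 in 41.4%, against 18.4%. Both sets were picked through the same vehicle values, which raises these shares by itself, so they are no independent check.

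The targets for which apigenin is known were measured as lists. CD38 itself read 322, 229 and 286 against 209, 239, 250 and 294, so the groups overlapped, and its log2 difference of 0.16 had a 95% interval from -0.30 to 0.63. Of 25 genes of NAD metabolism and sirtuins 18 had a higher mean, where 63.8% of all genes did, and 1 (2.57% of all genes on that side), Nadk, the kinase that turns NAD into NADP, had an unadjusted p under 0.05: 2123, 2069 and 1945 against 1955, 1687, 1839 and 1624. Nampt, the limiting enzyme of NAD salvage, differed by 0.071, Parp1, a NAD-consuming DNA repair enzyme, by -0.044 and the deacetylase Sirt1 by 0.088, each with overlap. The list median was 0.082.

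Of 23 genes of NRF2 and its targets 1 had an unadjusted p under 0.05 (2.57% of all genes on the higher side). This was Gclc, the catalytic subunit that limits glutathione synthesis, at 2257, 2365 and 2371 against 2097, 1763, 2123 and 2025, without overlap (0.22, unadjusted p = 0.011). Apigenin 3 read 2067 for it, within the vehicle range. Nfe2l2, which encodes NRF2, differed by 0.17, and its classical targets Nqo1 and Hmox1 by 0.057 and 0.12. Among 8 genes of the aryl hydrocarbon receptor and its targets 0 had an unadjusted p under 0.05. The receptor Ahr was at -0.11, the monooxygenase Cyp1b1 at -0.021 and Tiparp, an ADP-ribosylating target, at -0.33 (limma, unadjusted p = 0.057).

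None of the 15 GABA-A receptor subunits measured had an unadjusted p under 0.05. The beta subunit gene Gabrb2 differed by -0.033 and the list median was 0.012. The 3 casein kinase 2 subunits differed by -0.044 to 0.037, with Csnk2a1 at 0.024. Differences this near 0 change sign with the scaling: Csnk2a1 was -0.011 in edgeR.

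Of 30 NF-kB and innate sensing genes measured, 21 had a higher mean, a share near the 63.8% of all genes. 3 had an unadjusted p under 0.05 on the higher side (2.57% of all genes) and 6 had every apigenin library above every vehicle library (5.98%). Apigenin 3 lay above all 4 vehicles in 0 and below all 4 in 3 of the 11 members in place. With realigned values it lay above all 4 in 4 and below all 4 in 4 of the 30. Over the 11 in place its mean log2 level was 7.43, inside the vehicle range of 7.37 to 7.52 and under the 7.55 to 7.68 of the tested apigenin libraries. Vcam1, a leukocyte adhesion molecule, read 1026, 978 and 943 against 834, 853, 812 and 878 (0.22, unadjusted p = 0.040). The endosomal RNA sensor Tlr7 read 79.6, 112.8 and 76.1 against 71.8, 66.4, 63.9 and 59.6, and the inflammasome sensor Nlrp3 27.3, 36.9 and 32 against 23.6, 18.4, 11.2 and 19.5. Once moved back into place, apigenin 3 read 1002 for Vcam1, 101.6 for Tlr7 and 28.6 for Nlrp3, each above every vehicle library. The transcription factor subunit Rela and the feedback inhibitor Nfkbia differed by -0.032 and -0.11 with overlap. The list median was 0.098 with the deposited scaling and 0.015 after quantile normalization.

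Other immune and glial lists lay near the median of all genes. The type I interferon list had 1 of 35 members with an unadjusted p under 0.05 (Oas1a, an antiviral synthetase, 0.65). Complement had 1 of 16 and activated microglia 1 of 28 (Tyrobp, a microglial signaling adaptor, 0.36). Each was on the higher side, where 2.57% of all genes had such a p. C4b, the complement gene known to climb with age, read 1256, 999 and 1236 against 1415, 1193, 1145 and 1083. Clec7a, a receptor of reactive microglia, read 8.7, 10.3 and 17.3 against 21.2, 11.2, 13.2 and 21.8. Gfap, the astrocyte filament, differed by -0.13, Apoe by -0.020 and the myelin protein gene Mbp by 0.052, all with overlap. Homeostatic microglia, astrocyte and myelinating oligodendrocyte lists had 0 members with an unadjusted p under 0.05 of 15, 16 and 20. Medians were 0.024 for interferon, 0.043 for complement, 0.011 for activated and 0.028 for homeostatic microglia and 0.022 for oligodendrocytes, and each was below 0 in edgeR, DESeq2 and quantile normalization. The astrocyte median was 0.070.

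**Figure D4:**
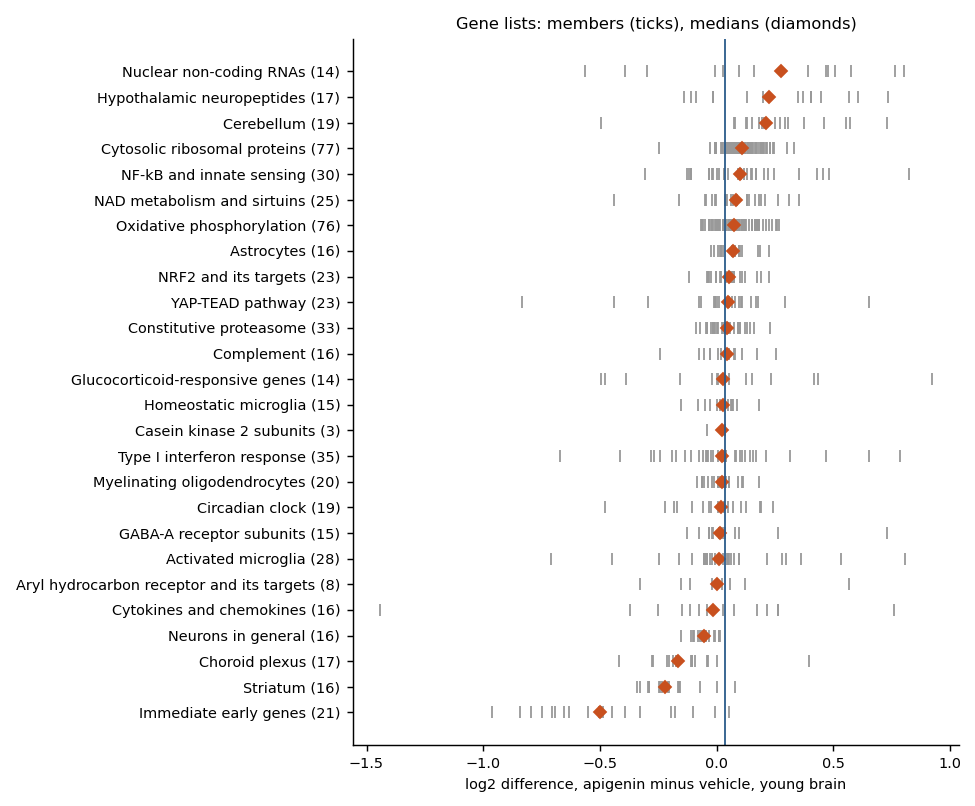
Log2 difference, apigenin minus vehicle, in young brain for the members of 26 gene lists (ticks) with the median of each list (diamonds) and the number measured in parentheses; the vertical line is the median of all genes tested, 0.0369. The immediate early genes lie lowest at -0.50, and no member of any list passed the adjusted test.

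Genes of protein synthesis and energy supply had small differences, most of them above 0. Over all genes 63.8% had a higher mean log2 level, 5.98% had every apigenin library above every vehicle library and 2.57% had an unadjusted p under 0.05 on the higher side. Of 77 cytosolic ribosomal protein genes 71 had a higher mean and 21 had every apigenin library above every vehicle library, but only 1, Rps20, had an unadjusted p under 0.05 (3368, 3216 and 3348 against 2975, 2881, 2839 and 2910). The list level was 12.31, 12.19 and 12.20 against 12.16, 12.03, 12.14 and 12.16, and its median was 0.11, or 0.075 with edgeR, where the median of all genes is 0.000683. Vehicle 2, the library with most Rn45s, had the lowest level, and the part of that in the result was not tested. Of 76 oxidative phosphorylation genes 62 had a higher mean and 4 an unadjusted p under 0.05. Cox6c, a cytochrome oxidase subunit, read 4996, 4592 and 4635 against 3920, 3502, 4200 and 4160, and Cox7b differed by 0.25. Of 33 proteasome subunits 1, Psmc6, had an unadjusted p under 0.05. The left-out library did not share the direction of the ribosomal list: apigenin 3, in place or realigned, lay below all 4 vehicle libraries in 23 of the 77 genes and above all 4 in 4, against 18.4% and 15% of all genes. It was below all 4 in 6 and above all 4 in 3 of the 76 oxidative phosphorylation genes, and read 2803 for Rps20 and 3691 for Cox6c.

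Of 23 unfolded protein response genes 2 had an unadjusted p under 0.05, both on the higher side (2.57% of all genes). Creld2, an endoplasmic reticulum stress protein, read 766, 709 and 627 against 532, 539, 607 and 563 (0.32), without overlap, and apigenin 3 read 695, also above every vehicle library. The chaperone Dnajc3 differed by 0.17.

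Hormone and clock genes varied between single mice. Per1, a clock gene that also answers to glucocorticoid and to activity, read 5347, 3405 and 2772 against 4604, 5196, 5207 and 5644, so that apigenin 1 lay inside the vehicle range (-0.48, unadjusted p = 0.011). It was the only member of 19 clock genes with an unadjusted p under 0.05 (0.531% of all genes on the lower side). Klf15, a glucocorticoid target, read 1254, 1097 and 692 against 753, 669, 773 and 752 (0.42, unadjusted p = 0.021), with apigenin 4 at the vehicle level. Fkbp5, a chaperone of the glucocorticoid receptor, read 1520, 1971 and 1178 against 1354, 1283, 1251 and 1295, and Sgk1, a kinase induced by the same hormone, 4357, 3143 and 1550 against 2686, 3427, 4031 and 4644. Cdkn1a, the cell cycle inhibitor p21, read 1099, 1255 and 622 against 1080, 1017, 1076 and 1066. In all 5 genes apigenin 4 was the lowest of the apigenin libraries. The left-out apigenin 3 lay above all 4 vehicles in 10 of the 14 glucocorticoid-responsive genes, against 15% of all genes, with 1938 for Fkbp5. The list median over the tested libraries was 0.029. Esr1, the estrogen receptor, and Ntrk2, the receptor for BDNF, differed by 0.019 and 0.082.

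Hypothalamic neuropeptides included Pmch, given above, and Oxt, the oxytocin precursor, at 471, 307 and 452 against 405, 282, 217 and 198 (0.60, unadjusted p = 0.026), with overlap through vehicle 1. 11 of 17 had a higher mean, a share near the 63.8% of all genes, and the list median was 0.23. Of the thalamus and hypothalamus list Lhx9 and Irs4, an insulin receptor substrate, had an unadjusted p under 0.05. On the higher side 2.57% of all genes had such a p. Apigenin 3 read 185 for Oxt and 309 for Irs4, under every vehicle library.

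Nuclear non-coding RNAs had a median of 0.28 over 14 members, and 4 had every apigenin library above every vehicle library, where 5.98% of all genes do. Apigenin 3, in place or realigned, lay above all 4 vehicles in 0 of the 14 and below all 4 in 4. Rmst, a neuronal non-coding RNA, read 77.5, 55.4 and 76.1 against 53, 43.9, 32.4 and 30.9, and the imprinted Rian 8856, 9234 and 9845 against 7908, 5821, 7759 and 7056. Neat1, the scaffold of paraspeckles, read 2102, 2547 and 2779 against 1480, 1242, 1604 and 1499 (0.76, unadjusted p = 0.053). The fit takes its spread from the old libraries too, where Neat1 ran from 1907 to 7176. Apigenin 3 read 1309 for Neat1 and 6710 for Rian once moved back into place, both below 3 of the 4 vehicle libraries.

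The 7 brains did not hold the same regions in the same shares, and these values stand beside the results above. The cerebellum list had a mean log2 level of 9.59 in vehicle 1 and of 10.78 to 11.53 in the other 6. Gabra6, the receptor subunit of cerebellar granule cells, read 166 in vehicle 1. The hindbrain and cord Hox genes, which mark tissue behind the midbrain, had levels of 6.25, 3.22 and 2.76 in apigenin 1, 2 and 4 against 5.12, 5.15, 6.23 and 5.91. All 15 measured had a lower mean with apigenin, with a median of -1.37 (-0.75 in edgeR), but none had an unadjusted p under 0.05 and apigenin 1 was at the top of the range. Hoxb5 read 247, 23.6 and 9.5 against 137, 161, 293 and 270, and 187 in apigenin 3.

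The choroid plexus level was 7.66 in apigenin 2 and 8.40 to 8.85 in the rest. Ttr, its transthyretin gene, read 18003 in apigenin 2 and 36610 or more elsewhere. Striatal genes were lowest in apigenin 1, at 10.04 against 10.56 to 10.76. The pituitary hormone gene Gh read 345 in vehicle 1, 19.4 and 9.1 in vehicle 2 and 3, and 0 in vehicle 4 and in the 3 apigenin libraries. The hemoglobin genes Hba-a1 and Hbb-bs are listed at 0 in all 7. Neuronal, astrocyte, oligodendrocyte, microglial and endothelial markers (Snap25, Aqp4, Mog, Cx3cr1, Cldn5) were present in every library, as the whole-brain label asks. The part of regional content in the gene differences was not tested, apart from the fit with the cerebellar level given above.

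**Figure D5:**
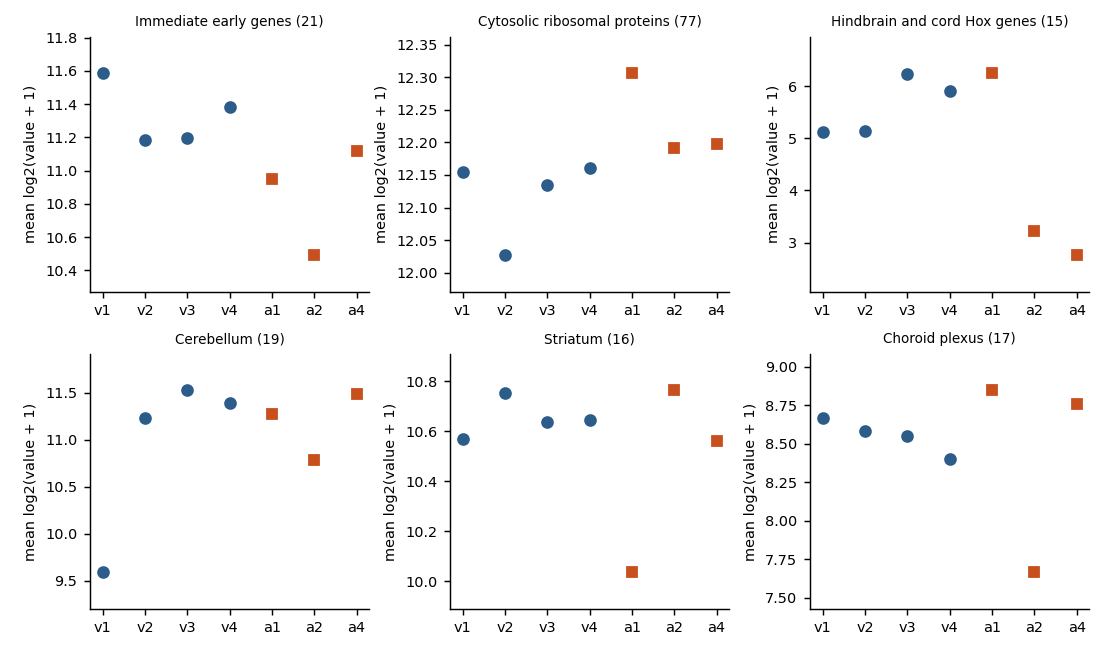
Mean log2(value + 1) of 6 gene lists in each young library, vehicle 1 to 4 as circles (v1 to v4) and apigenin 1, 2 and 4 as squares (a1, a2, a4), with the number of genes in parentheses; axes do not start at 0. The groups separate for immediate early and ribosomal protein genes, while single libraries stand apart for Hox genes (a2, a4), cerebellum (v1), striatum (a1) and choroid plexus (a2).

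Whether the young and old mice answered differently was tested with an interaction term. 0 of 15808 genes (0%) passed in limma at an adjusted p under 0.05, and 196 had an unadjusted p under 0.05 (1.24%). Of the named genes on the lower side, Cxcl10 ranked first, at -1.44 in young and 0.52 in old mice (limma, adjusted p = 0.99996). Irf7, an interferon regulatory factor, differed by -0.28 and 0.53, Coa7, a respiratory chain assembly factor, by -0.19 and 0.14, Gimap6 by -0.75 and 0.079 and Tgfb1 by -0.25 and 0.10. On the higher side stood Pbld2, a phenazine biosynthesis-like protein, at 0.47 and -0.61. With it were the non-coding Gt(ROSA)26Sor at 0.58 and -0.28, Nkiras2 at 0.42 and -0.067, and Sepsecs, an enzyme of selenocysteine synthesis, at 0.28 and -0.19. None of these differences between ages passed the adjusted test.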

How the data were processed

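Whole-brain poly-A RNA was sequenced, and the authors deposited 1 table of normalized values per gene and library (signal: read counts scaled to nearly equal library totals). The deposited totals of the intact libraries ran from 3.3551e+07 to 3.3554e+07. The submitters' processing notes name STAR, DESeq2 and the mm10 build; the read counter, annotation and strand setting: not given in the sources used here. Dividing the deposited signal by its smallest step in a library returned whole reads for 100% of values (tolerance 0.01 of a read), 28171596 to 41145635 per intact library. The last 6 of 24411 rows were left out, because 4 cells are blank there, and young apigenin 3 was realigned by its likeness to the other young libraries.

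Log2(value + 1) of 15808 genes with a mean of at least 10 over the 17 intact libraries was fitted with limma 3.58.1 (R 4.3.3; 4 group means, trended variance, two-sided p, Benjamini-Hochberg over all genes, threshold 0.05), after a test on simulated data. Alternatives used edgeR 4.0.16 and DESeq2 1.42.0 on the recovered reads, other pseudocounts and filters, quantile normalization, array weights, only the young libraries, a replicate block, and each library left out. The cerebellar term was chosen after seeing the data.

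The comparison, the 56 gene lists and the 30 genes named for their role were chosen with earlier results of these data known, so lists carry no test. Named are the 10 higher and 10 lower genes of smallest p (predicted genes, Riken clones and pseudogenes aside), up to 4 members of each list described, the role genes, and 5 genes on each side of the interaction; a few genes that these rules name are not reported here. Cyr61, Cox7a2, Gabra6 and Tsc22d3, and the other members of the immediate early and regional lists, were named after their values were seen. Same-numbered young libraries did not deviate together (r from -0.165 to 0.0574 over 3 pairs), so numbers were not taken as pairs. Libraries of a young group differed by more than sampling noise in all 9 pairs (chi-square over its degrees of freedom, 3.94 to 31.5).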

Additional observations from a re-analysis of the deposited data

Results flagged for a closer look

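6 values set 1 vehicle library apart from the other 3 of its group, by a gap above Dixon's 95% critical value, among 96 genes and 32 list levels looked at; chance gives about 1 such flag in 20 groups. Vehicle 1 stood highest for Btg2 at 2202, lowest for the cerebellum list at a mean log2 level of 9.59 and highest for the homeostatic microglia list at 10.2. Vehicle 2 stood lowest for Sirt1 at 408 and for the ribosomal protein gene Rpl39 at 1003. Vehicle 3 stood lowest for Ier5 at 2244. The apigenin group has 3 libraries and was not examined in this way.

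In Pbld2 all 3 young apigenin libraries lay above all young vehicle libraries while all 5 old apigenin libraries lay below all old vehicle libraries, so that the effect of apigenin was 1.07 higher on the log2 scale in young than in old mice (interaction, limma, unadjusted p = 0.0019, adjusted p = 0.99996). The values are low, at 30.5, 32.8 and 25.1 against 23.6, 19.4, 19.3 and 21.8 in the young mice, and the left-out apigenin 3, realigned, read 12.7, below every young vehicle library.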

How the results depend on the processing

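No gene passed in the young comparison under any alternative run except DESeq2, which passed 1 gene (Ctgf, log2 difference -0.48), and none passed for the difference between ages. The count of genes at an unadjusted p under 0.05, 490 in the report, was 836 with only the 7 young libraries, 1100 with array weights, and 253 to 596 with 1 library left out. With the replicate number as a block, although the numbers do not pair the libraries and vehicle 3, without a partner, then adds nothing to the difference, there were 574 such genes and 0 passing; the block lowered the immediate early genes at an unadjusted p under 0.05 from 11 to 7 and reversed Esr1 (-0.0429) and Egr3 (0.0132). The median of the NF-kB list was 0.0475 with DESeq2, 0.0584 with edgeR, 0.0151 with quantile normalization, 0.0298 at a mean of at least 100, 0.0541 with apigenin 3 realigned, and 0.0554 to 0.122 with 1 library left out. The casein kinase 2 median was -0.0157, -0.011 and -0.00327 with DESeq2, edgeR and quantile normalization and 0.000827 to 0.0288 with 1 library left out. The cytokine median was -0.0725 with DESeq2 and -0.0676 with edgeR, that of nuclear non-coding RNAs 0.152 with apigenin 3 realigned, and that of all genes -0.00422, 0.000683 and -0.00195 with DESeq2, edgeR and quantile normalization. 

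Differences near 0 changed sign, and the cause was not tested. With DESeq2 Csnk2a1 was -0.0157 and Esr1 -0.027. With edgeR Csnk2a1 was -0.011 and Esr1 -0.0211. Quantile normalization gave -0.0142 for Nqo1, -0.0523 for Esr1 and 0.05 for Apoe, and array weights 0.0645 for Cyp1b1 and -0.0155 for Mbp. Apigenin 3, in place or realigned, gave 0.149 for Cyp1b1, 0.0105 for Gabrb2, -0.0146 for Esr1, 0.0256 for Cdkn1a and 0.0563 for Egr3. The cerebellar term, chosen after seeing the data, gave 0.0368 for Egr3. With 1 library left out the ranges that crossed 0 were -0.128 to 0.0823 for Cyp1b1, -0.065 to 0.233 for Nqo1, -0.0814 to 0.0402 for Gabrb2, -0.14 to 0.227 for Bdnf, -0.0429 to 0.0615 for Esr1, -0.28 to 0.0602 for Nfkbia, -0.114 to 0.0511 for C4b, -0.34 to 0.0265 for Gfap, -0.0461 to 0.016 for Apoe, -0.357 to 0.148 for Cdkn1a, -0.715 to 0.0304 for Sgk1, -0.0701 to 0.138 for Mbp, -0.146 to 0.157 for Egr3, -0.189 to 0.00545 for Ier5, -1.05 to 0.0747 for Btg2, -0.0301 to 0.467 for Tsc22d3, -0.26 to 1.15 for Gabra6 and -0.509 to 0.294 for Ttr.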

Other observations

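Several further gene groups were measured in the young brains and gave no member past the adjusted test. Heat shock genes, cholesterol synthesis, lysosome and autophagy, and collagens and matrix assembly had 0 members with an unadjusted p under 0.05 of 19, 23, 27 and 23 measured. The p53 and senescence list had 1 of 19, on the higher side (2.57% of all genes), and hypoxia and glycolysis 1 of 22, on the lower side (0.531%). The olfactory bulb list varied between single brains, with mean log2 levels of 7.62, 8.31 and 8.94 in apigenin 1, 2 and 4 and 9.35, 8.55, 7.61 and 8.68 in vehicle 1 to 4, so that the groups overlapped. Of 15 mitochondrially encoded genes looked for, 0 were among the genes tested.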
